A study of Mus musculus with 2 samples.

Results

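The genes described here write, maintain, protect or remove DNA methylation, and their poly(A) RNA was measured in mouse embryonic stem cells. They are 10 genes given by name, of 15127 protein-coding genes with at least 1 count, namely Dnmt1, Dnmt3a, Dnmt3b, Dnmt3l, Uhrf1, Tet1, Tet2, Tet3, Tdg and Zfp57. All 10 were in the table. Both libraries belonged to 1 group, cells of the female line pSM44, which came from an F1 cross of the 129 and castaneous mouse strains and was grown in serum-free 2i/LIF medium with 2 μg/mL doxycycline for 24 h. In this line a tetracycline-inducible promoter drives Xist, the RNA that silences an X chromosome, from the endogenous locus of the 129 allele, so Xist induction was common to everything measured. The counts stood in a single column that summed to 10017978 and named neither library, so it may be a pool of the 2 or just 1. Each gene therefore had 1 value without replicate error, no test between conditions could be made, and intervals below cover counting error only.

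DNA methylation in mammals is written on cytosines of CpG sites by the de novo enzymes Dnmt3a and Dnmt3b and copied to new strands after replication by Dnmt1, which Uhrf1 brings to hemimethylated sites. Tet enzymes oxidise methylated cytosine, and the glycosylase Tdg excises the later oxidation products so that base excision repair can restore cytosine. Embryonic stem cells held in 2i/LIF medium are known for low global methylation, and female lines with 2 active X chromosomes for still lower levels.

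The cells carried the markers of the naive state. All 7 naive and core pluripotency markers examined were at CPM 1 or more (CPM is the count scaled to the column total), with a median level of 252 CPM per kilobase of exon. Of 7 differentiated or primed markers 6 were listed, and 5 of these also reached CPM 1. Their median level was 1.26 CPM per kilobase, the highest was T at 5.22, and Col3a1 was not in the table. Levels of different genes are given per length, as CPM per kilobase of the union of the exons that GENCODE M21 annotates for the gene on GRCm38. As this choice moves many of the ratios between genes, their range is also given over 6 length definitions: the union of exons, the longest transcript, the longest coding sequence, the gene span, exonic bases not under another gene, and no length correction (CPM).

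The 10 genes ran from Uhrf1, above 98.0% of genes per kilobase, to Tet3, above 29.8%. All 10 were at CPM 1 or more, a level reached by 80.1% of all listed genes. Their median level was 11.1 CPM per kilobase, against 3.80 for all 15050 listed genes with an annotated length, and 8 of the 10 lay above that value. On the log2(CPM per kilobase + 1) scale the medians differed by 1.29. Uhrf1 exceeded Tet3 by 166-fold per kilobase of exon. That factor moved with length, with 641 against 15.2 CPM without length and 31.8 against 0.157 CPM per kilobase of gene span. Together the 10 genes held 18253 counts, or 0.182% of the column.

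**Figure D1:**
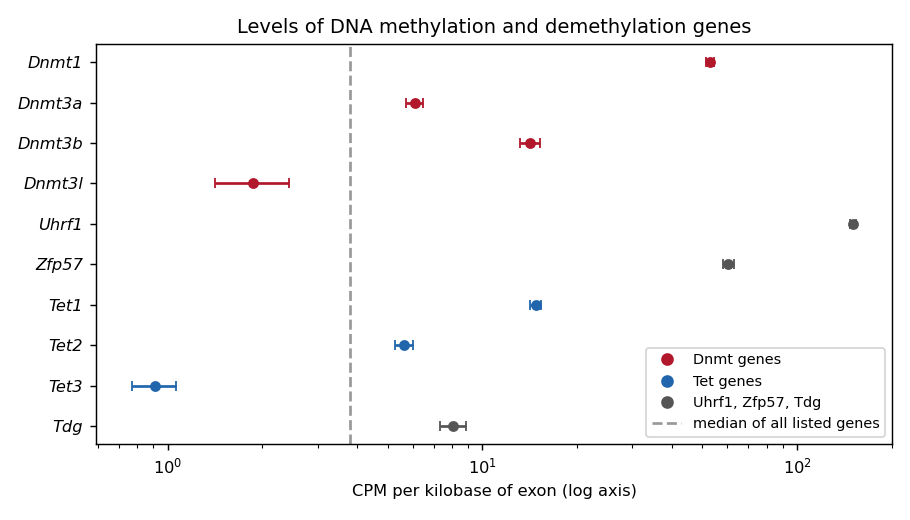
Level of each of the 10 genes in CPM per kilobase of exon on a log axis, with Dnmt genes in red, Tet genes in blue and the others in grey. Bars are exact Poisson 95% intervals for counting error, and the dashed line is the median of all listed genes at 3.80. Dnmt3l and Tet3 are the genes left of that line, and Uhrf1 is the gene farthest right, at 150.5.

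The genes of maintenance, Uhrf1 and Dnmt1, were above the de novo genes under each of the 6 length definitions tried. Uhrf1 (chr17:56303321-56323486, plus strand), the hemimethylation reader that recruits Dnmt1, had 6420 counts, or 641 CPM (625 to 657). At 150.5 CPM per kilobase (146.8 to 154.2) it was first of the 10 under each of those definitions. Dnmt1 (chr9:20907209-20959888, minus strand), the maintenance methyltransferase, had 3913 counts, or 391 CPM with an interval of 378 to 403. Its level of 52.9 CPM per kilobase (51.3 to 54.6) exceeded that of 93.1% of genes. The Uhrf1 level was 2.84 times that of Dnmt1 per kilobase (exact binomial 95% interval 2.73 to 2.96), and between 1.64 and 4.29 times over the 6 definitions. Of the bases of the longest coding Uhrf1 transcript, 44.3% matched the processed pseudogene Gm5648 at 95% identity or more, so its count is uncertain. The authors' counting of reads with several matches is not stated.

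The genes of de novo methylation were lower and uneven. Dnmt3a (chr12:3806007-3914443, plus strand) had 1017 counts, or 101.5 CPM, over 16642 exonic bases, which gave 6.10 CPM per kilobase (5.73 to 6.49). Dnmt3b (chr2:153649450-153687730, plus strand) had 725 counts, or 72.4 CPM, over 5106 exonic bases, which gave 14.2 CPM per kilobase (13.2 to 15.2). Dnmt3l (chr10:78041947-78063622, plus strand), which has no catalytic activity of its own and stimulates Dnmt3a and Dnmt3b, had 56 counts, or 5.59 CPM (4.22 to 7.26). That gene stood at 1.87 CPM per kilobase (1.41 to 2.43), above 38.7% of genes. Dnmt3b exceeded Dnmt3l by 7.58-fold per kilobase (5.77 to 10.1) and Dnmt3a exceeded it by 3.26-fold (2.49 to 4.35). Over the 6 definitions the Dnmt3b factor ran from 5.46 to 12.9 and the Dnmt3a factor from 3.00 to 18.2, and the Dnmt3a factor was the larger per coding sequence (8.42) and without length (18.2). Of the Dnmt3l exonic bases, 9.47% lay under Aire, a coding gene on the other strand with 17 counts of its own. Dnmt1 alone was 2.61 times the sum of Dnmt3a and Dnmt3b per kilobase, a factor that came to 1.23 per kilobase of coding sequence and 2.25 without length.

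The order of Dnmt3a and Dnmt3b depended on the length that was used. Per kilobase of exon Dnmt3a was at 0.430 times Dnmt3b (exact binomial 95% interval 0.391 to 0.474), and per longest transcript at 0.626 times. Per kilobase of the longest coding sequence it was at 1.33 times, and by CPM at 1.40 times. Dnmt3a has an upstream start, from which the longest transcript runs 9685 bases, and an internal start, from which the longest coding transcript runs 5424 bases. The internal start makes Dnmt3a2, the short form known to prevail in mouse embryonic stem cells. With that transcript as the Dnmt3a length, Dnmt3a was at 1.12 times the longest Dnmt3b transcript. A count per gene does not separate the start sites, so the order of these genes is not settled by these data. The bases before both starts of Dnmt3a are shown because the length choice turns on which start is used. They come from RefSeq on GRCm38.p6, 5′ to 3′ on the gene's strand, with CpG sites in capitals.
Dnmt3a upstream start, chr12:3806730-3806979, plus strand: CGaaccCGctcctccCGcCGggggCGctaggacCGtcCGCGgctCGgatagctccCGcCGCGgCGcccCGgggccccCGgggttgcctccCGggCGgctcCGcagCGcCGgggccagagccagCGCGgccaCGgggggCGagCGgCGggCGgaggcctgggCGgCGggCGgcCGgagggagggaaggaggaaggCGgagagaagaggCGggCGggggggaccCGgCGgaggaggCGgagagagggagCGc
Dnmt3a internal start, chr12:3891494-3891727, plus strand: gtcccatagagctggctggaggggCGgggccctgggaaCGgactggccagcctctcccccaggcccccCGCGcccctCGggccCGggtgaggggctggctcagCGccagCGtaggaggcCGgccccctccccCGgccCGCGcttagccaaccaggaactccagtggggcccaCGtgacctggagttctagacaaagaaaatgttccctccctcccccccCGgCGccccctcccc
The 250 bases before the upstream start held 38 CpG sites, and the 250 before the internal start held 15, of which the 234 bases shown stop at the first annotated exon. A promoter window with 38 or more CpG sites was found for 1.88% of the 32851 RefSeq start sites of the mouse, and one with 15 or more for 27.3%.

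The rodent relative Dnmt3c had few counts. This gene, known for methylating retrotransposons in the male germline, begins 8922 bases beyond the end of Dnmt3b and had 3 counts, or 0.299 CPM, with a Poisson interval of 0.619 to 8.77 counts. It is not one of the 10 genes and was looked up after the table had been seen. Its transcript matched Dnmt3b at 93.9% identity over 1434 bases, below the 95% used here to call a stretch near-identical. Besides Uhrf1 and Tdg, the other 8 genes had no stretch of 100 bases or more that reached that identity in another annotated gene.

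Among the Tet genes, Tet1 was highest and Tet3 lowest. Tet1 (chr10:62804570-62908996, minus strand), the oxidase typical of pluripotent cells, had 2286 counts, or 228 CPM, and 14.8 CPM per kilobase (14.2 to 15.4). Tet2 (chr3:133463679-133545139, minus strand), which lacks the CpG-binding CXXC domain of its relatives, had 953 counts, or 95.1 CPM, and 5.64 CPM per kilobase (5.29 to 6.01). Tet3 (chr6:83362373-83459084, minus strand), known for oxidising the paternal genome in the zygote, had 152 counts, or 15.2 CPM, and 0.909 CPM per kilobase (0.770 to 1.07). Their intervals do not overlap. Tet1 exceeded Tet2 by 2.62-fold (2.43 to 2.83) and Tet3 by 16.2-fold (13.8 to 19.3) per kilobase of exon. By the longest transcript the Tet1 to Tet2 factor was 1.53, as that transcript has 14369 of 15457 exonic bases in Tet1 but 9179 of 16870 in Tet2. Tet1 made up 69.3% of the summed Tet level per kilobase, Tet2 26.5% and Tet3 4.26%.

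Set side by side, the Dnmt genes summed to 75.1 CPM per kilobase and the Tet genes to 21.3. The ratio of 3.52 is a log2 difference of 1.82, with an approximate counting interval of 1.75 to 1.88. Dnmt1 supplied 70.5% of the Dnmt sum, Dnmt3b 18.9%, Dnmt3a 8.12% and Dnmt3l 2.49%. Without Dnmt3l the log2 difference was 1.78. Dnmt1 and Tet1 thus gave most of their family's sum, and Dnmt1 exceeded Tet1 by 3.59-fold (exact binomial 95% interval 3.40 to 3.78), or 1.71 to 4.19-fold over the 6 definitions. Without length the ratio of the sums was 1.68, and the exonic lengths behind that shift ran from 15457 to 16870 bases for the Tet genes, against 7377 for Dnmt1.

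Pair by pair the families interleaved. Of 12 pairs of a Dnmt with a Tet gene, the Dnmt gene was higher per kilobase of exon in 8, and the counting interval lay above 1 in 7 pairs, below 1 in 3 and around 1 in 2. Dnmt3b and Tet1 were next to each other at a ratio of 0.960 (0.882 to 1.04), and Dnmt3a and Tet2 at 1.08 (0.989 to 1.18). These are the neighbours in the order of the 10 genes whose intervals overlap. Dnmt3a was below Tet1 at 0.413 times (0.383 to 0.445), while Dnmt3b was above Tet2 at 2.51 times (2.28 to 2.77). Dnmt3l was above Tet3 at 2.06 times (1.49 to 2.81) but below Tet1 at 0.127 times and below Tet2 at 0.332 times. Across the length definitions the Dnmt gene was higher throughout in 5 pairs, those of Dnmt1 with each Tet gene and of Dnmt3a and Dnmt3b with Tet3. The Tet gene was higher throughout in 3 pairs, Dnmt3a with Tet1 and Dnmt3l with Tet1 and Tet2, although Dnmt3a reached 0.999 times Tet1 per coding sequence. In the other 4 pairs the order changed.

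**Figure D2:**
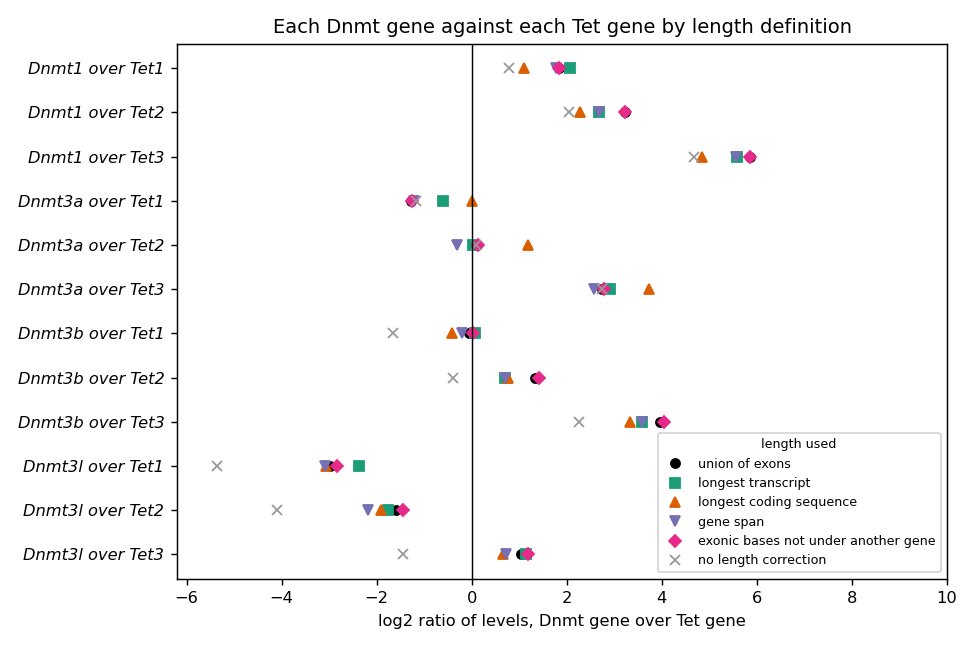
Log2 ratio of each Dnmt gene over each Tet gene (rows) under 6 length definitions (symbols), with the vertical line at equal levels. The 3 rows of Dnmt1 lie right of the line under every definition, the rows of Dnmt3l with Tet1 and Tet2 lie left of it, and symbols of 4 rows fall on both sides.

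The remaining genes were Tdg, which acts downstream of the Tet oxidases, and Zfp57, which acts in imprint protection. Tdg (chr10:82629828-82650799, plus strand), the thymine DNA glycosylase that removes formylcytosine and carboxylcytosine, had 436 counts, or 43.5 CPM, and 8.10 CPM per kilobase (7.36 to 8.90). That was 0.549 times the Tet1 level (0.494 to 0.608). The ratio was 0.191 without length and 0.924 per coding sequence (0.832 to 1.02), and there and per gene span (0.855 to 1.05) its interval holds 1. The value is uncertain, since 95.2% of the longest coding Tdg transcript matched other annotated genes at 95% identity or more, chiefly the processed pseudogenes Tdg-ps, Gm9855 and Gm5597. Zfp57 (chr17:37001163-37010635, plus strand), a KRAB zinc finger protein that binds methylated imprint control regions, had 2295 counts, or 229 CPM, and 60.5 CPM per kilobase (58.1 to 63.0). Zfp57 was 1.14 times Dnmt1 per kilobase (1.08 to 1.20), a ratio that reached 3.26 per gene span and turned to 0.587 without length, with 229 CPM for Zfp57 against 391 CPM for Dnmt1.

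Start sites of the 10 genes differed widely in CpG sites, on which their products act. RefSeq gave 19 start sites for the 10 genes, all 10 matched, and the motif CG, which reads the same on both strands, was counted in the 250 bases before each. Of the 19 windows 11, or 57.9%, held 10 or more, against 37.8% of all 32851 mouse windows, whose median was 6. Dnmt3l and Zfp57 had none among the 11. Tet2 had 51 CpG sites, a number reached by 0.0670% of all windows, Uhrf1 had 30 and 10 at its starts and Dnmt3b had 21. The 3 windows of Dnmt1 held 26, 7 and 2, and those of Dnmt3a held 40, 38 and 15. Tdg had 19, Tet3 17 and Tet1 15. The 3 starts of Dnmt3l held 5, 4 and 3, and those of Zfp57 held 7, 6 and 3. Exons of the gene itself overlapped the windows of Dnmt1 with 26, Uhrf1 with 10, Tet1 with 15 and Tdg with 19. The same held for Dnmt3a with 40 and 15, Dnmt3l with 5 and Zfp57 with 7 and 3. The Dnmt3a windows with 40 and 38 also overlapped each other. CpG-poor and CpG-rich starts occurred at both ends of the order of levels. Zfp57, second of the 10 genes per kilobase, was CpG-poor, and Tet3, the last, was not. Shown is 1 window each of Uhrf1, the highest gene, of Tet2, the richest in CpG, and of Dnmt3l, the lowest Dnmt gene. For Uhrf1 it is the window with 30 CpG sites and for Dnmt3l the window with 4. Which of their starts these cells use was not tested. The windows are from RefSeq on GRCm38.p6, 5′ to 3′ on the gene's strand, with CpG sites in capitals.
Uhrf1, chr17:56304063-56304312, plus strand: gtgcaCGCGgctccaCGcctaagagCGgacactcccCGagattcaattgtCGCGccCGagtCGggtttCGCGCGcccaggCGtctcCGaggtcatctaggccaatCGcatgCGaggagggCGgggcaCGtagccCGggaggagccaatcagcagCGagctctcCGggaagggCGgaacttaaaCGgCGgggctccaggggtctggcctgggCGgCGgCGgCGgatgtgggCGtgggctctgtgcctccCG
Tet2, chr3:133544391-133544640, minus strand: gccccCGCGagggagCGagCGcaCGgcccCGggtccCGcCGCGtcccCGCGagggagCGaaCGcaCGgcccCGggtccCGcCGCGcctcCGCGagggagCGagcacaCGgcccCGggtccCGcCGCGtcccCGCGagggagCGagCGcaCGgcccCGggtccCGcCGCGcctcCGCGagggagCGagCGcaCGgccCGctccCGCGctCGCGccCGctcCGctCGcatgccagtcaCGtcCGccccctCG
Dnmt3l, chr10:78049592-78049841, plus strand: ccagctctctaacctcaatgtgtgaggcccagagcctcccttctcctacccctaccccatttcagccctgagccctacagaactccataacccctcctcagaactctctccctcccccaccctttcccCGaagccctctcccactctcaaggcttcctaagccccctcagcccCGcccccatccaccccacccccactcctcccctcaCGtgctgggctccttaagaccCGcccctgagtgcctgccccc
A CpG count describes these letters only, and methylation of the windows was not analysed here.

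**Figure D3:**
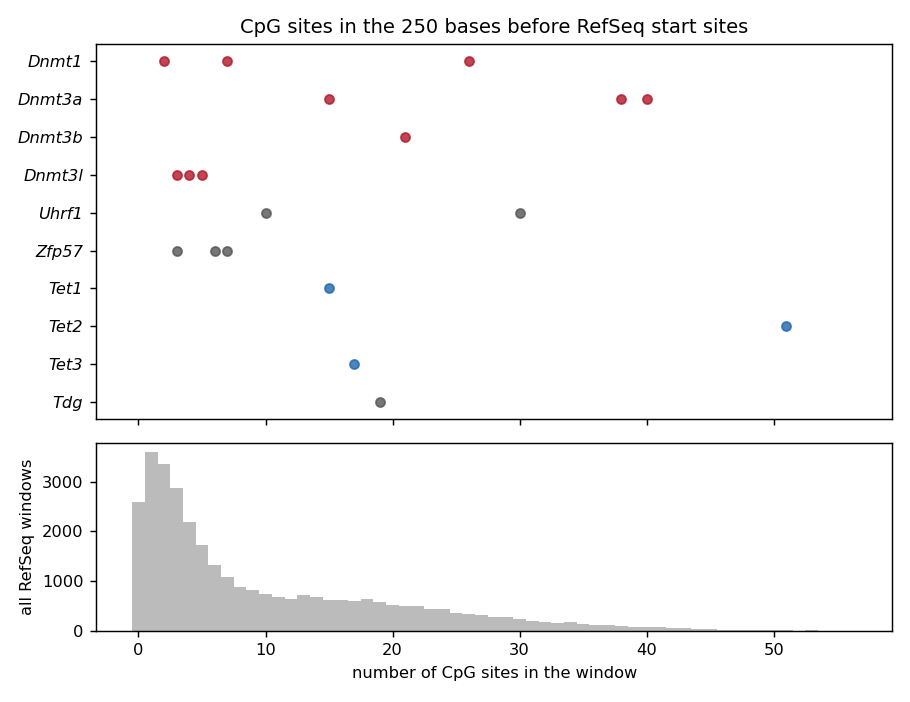
Number of CpG sites in the 250 bases before each RefSeq start site of the 10 genes (upper panel, 1 point per start site) and of all 32851 mouse start sites (lower panel, bars are numbers of windows). Tet2 lies at 51 in the far right tail, and all points of Dnmt3l and Zfp57 lie at 7 or below, near the bulk of the windows.

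Genes that work with the methylation enzymes were examined in 10 lists of 71 genes in all, of which 68 were in the table and 64 at CPM 1 or more. Those 64 were 90.1% of the 71, a base that includes genes not in the table. The share of all listed genes at CPM 1 or more was 80.1%, over genes with at least 1 count only, so these shares have unlike bases. The 80.1% also stands beside the counts per list below. Partners of maintenance at replication were the highest of these lists, with a median of 69.0 CPM per kilobase over 5 listed genes. Pcna, the replication clamp that Dnmt1 binds, was at 155 CPM per kilobase, 1.03 times Uhrf1 (0.987 to 1.07). That ratio ran from 0.579 without length to 2.81 per gene span. The DNA ligase Lig1 followed at 70.5 and the deubiquitinase Usp7 at 69.0, while the remodeler Hells was lowest at 34.0. Pclaf was not in the table and lies wholly inside Trip4. The Pcna value is uncertain, as 51.4% of its transcript matched a pseudogene. Per kilobase of exon all 5 listed partners were above Tet1, the highest Tet gene at 14.8. Without length Cdca7 was below Tet1, at 209 CPM against 228 CPM.

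Regulators of the methyltransferases had a median of 10.9 CPM per kilobase, all 8 at CPM 1 or more. Dppa3, known to block Uhrf1 on chromatin and so to oppose maintenance, was at 261 CPM per kilobase, 1.73 times Uhrf1 (1.65 to 1.82). Without length the order turned, with Dppa3 at 0.363 times Uhrf1, and under the other definitions the ratio was at most 1.89. Both values are uncertain, since 54.1% of the Dppa3 transcript matched pseudogenes. The histone methyltransferase gene Ehmt2 was at 54.4, and Prdm14, known to repress Dnmt3b and Dnmt3l in naive cells, was at 42.6. The demethylase gene Kdm1b was lowest at 4.25 CPM per kilobase. Prdm14 thus lay above both Dnmt3b at 14.2 and Dnmt3l at 1.87.

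Genes that read methylated CpG had a median of 2.80 CPM per kilobase of exon, below that of all genes at 3.80, although all 9 were at CPM 1 or more. That order turned without length, with a median of 23.5 CPM for the readers and 18.3 CPM for all listed genes. Mbd3, a subunit of the NuRD complex that binds methylated DNA poorly in mammals, stood apart at 64.5 CPM per kilobase. Uhrf2, the relative of Uhrf1, was at 7.67, and Uhrf1 exceeded it by 19.6-fold (18.1 to 21.3), or 9.59 to 30.5-fold over the 6 definitions. The methyl-CpG-binding gene Mbd2 was at 5.16, and Zbtb4, a zinc finger reader, was lowest at 0.406. Without Mbd3 and Uhrf2 the other readers lay at or below 5.16, under the level of Dnmt3a at 6.10.

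**Figure D4:**
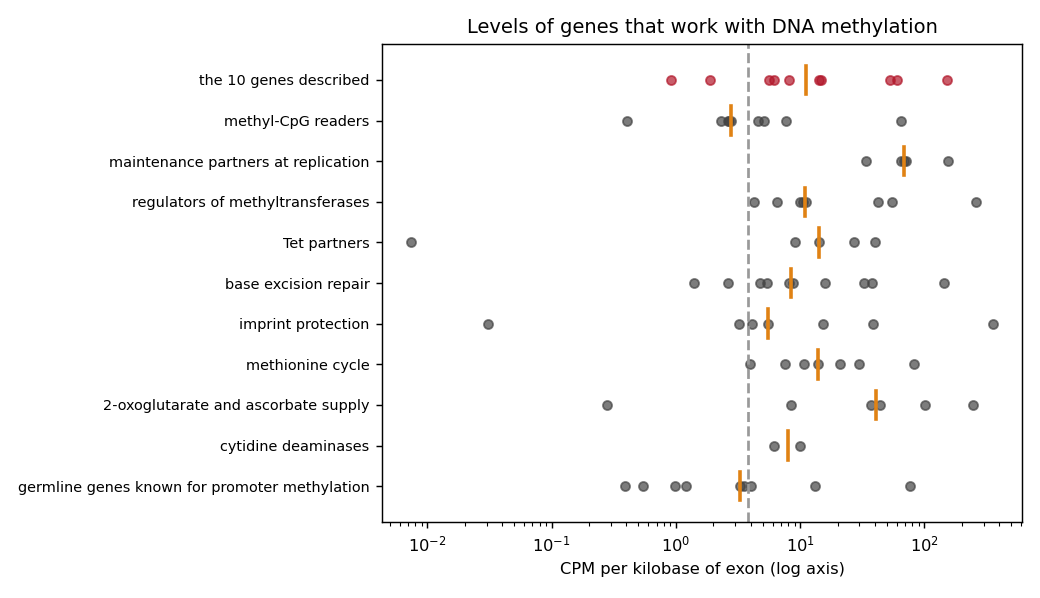
Levels in CPM per kilobase of exon on a log axis for the 10 genes described (red) and the listed members of 10 related gene lists (grey), 1 point per gene. Orange ticks are list medians and the dashed line is the median of all listed genes at 3.80. Maintenance partners at replication have the rightmost tick at 69.0, and methyl-CpG readers the leftmost at 2.80.

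Genes around the Tet enzymes and of base excision repair had medians above that of all genes. Among Tet partners (median 14.2 CPM per kilobase), Hcfc1 was highest at 39.7, Cxxc5 followed at 26.9 and Ogt, which binds Tet proteins and attaches N-acetylglucosamine, was at 14.2. Cxxc4 had 1 count. Base excision repair genes had a median of 8.45 CPM per kilobase, all 10 of them at CPM 1 or more. Parp1, which senses strand breaks, led at 144 CPM per kilobase, 17.8 times Tdg (16.2 to 19.7) and 7.29 times per coding sequence. The abasic endonuclease gene Apex1 was at 37.7, with 61.7% of its exonic bases under another gene, and the uracil glycosylase gene Ung at 32.8. Tdg was at 0.247 times Ung (0.222 to 0.274), or 0.103 to 0.265 times over the 6 definitions, and the glycosylase gene Neil2 was lowest at 1.39 CPM per kilobase. The comparisons of Parp1 and Ung with Tdg are uncertain, since 95.2% of the longest coding Tdg transcript has near-identical copies.

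Imprint protection genes had a median of 5.51 CPM per kilobase, with 6 of 7 at CPM 1 or more. Trim28, the corepressor that Zfp57 recruits to imprints, was at 358 CPM per kilobase, 5.92 times Zfp57 (5.66 to 6.19), with a range of 1.93 to 6.50 over the 6 definitions. Ctcf was at 38.7 and the histone methyltransferase gene Setdb1 at 15.4. Zfp445, another imprint-binding KRAB zinc finger gene, was at 4.08, and Zfp57 exceeded it by 14.8-fold (13.1 to 16.8), or 7.57 to 18.1-fold over the 6 definitions. Ctcfl, the germline relative of Ctcf, had 1 count.

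Genes that supply the cofactors had medians above that of all genes. In the methionine cycle, which provides the methyl donor, the median was 13.8 CPM per kilobase and all 7 genes were at CPM 1 or more. Ahcy, which clears the inhibitory by-product of methylation, led at 82.6 although 81.9% of its transcript has near-identical copies, then Ahcyl1 at 29.8 and Mat2a, which makes S-adenosylmethionine, at 21.03. Of the Mat2a transcript, 38.7% has near-identical copies. Genes of alpha-ketoglutarate and ascorbate supply, both used by Tet enzymes, had a median of 40.4 CPM per kilobase. The isocitrate dehydrogenase genes Idh2, Idh1 and Idh3a were at 244, 100.2 and 43.6 CPM per kilobase. The ascorbate transporter gene Slc23a1 was lowest with 9 counts and was the 1 gene of these 6 below CPM 1.

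Of the cytidine deaminase genes, Apobec3 was at 9.89 and Apobec1 at 6.13 CPM per kilobase. Germline genes whose promoters are known to be methylated in somatic cells had a median of 3.26 CPM per kilobase, with 8 of 9 listed genes at CPM 1 or more. Dazl, a germ cell RNA-binding protein, was at 76.0 CPM per kilobase, above Dnmt1 at 52.9. Without length the order turned, with Dazl at 290 CPM and Dnmt1 at 391 CPM. Hormad1 was at 13.2, with 61.0% of its transcript near-identical to a pseudogene, and Ddx4 at 4.01, while Asz1 was lowest at 0.388. Sycp3 was not in the table and lies wholly inside Chpt1.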

How the data were processed

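Poly(A) RNA of the pSM44 cells was sequenced as 2 libraries of 1 group. Per the submitters' processing notes, reads were trimmed with Trimmomatic 0.38, and HISAT2, SAMtools and the featureCounts program from Subread 1.6.4 are named, on the GRCm38.p6 build. The annotation, strand setting, counted feature and treatment of reads with several matches were not given in the sources used here. Genes were listed in almost exactly descending order of count per base of gene span (Spearman correlation 0.9999). Whether reads were counted over whole genes or over exons was not tested. Counts as deposited by the authors are unnormalized, one per gene symbol, whole numbers from 1 to 117610 in 1 column that names no library.

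Counts were scaled by the column total of 10017978 to CPM and divided by lengths from GENCODE M21, matched by symbol for 14896 genes and by RefSeq synonym for 154, with 77 unmatched. Single counts have exact Poisson 95% intervals, ratios of counts exact binomial ones, and ratios of sums approximate ones (delta method). All cover counting error only, as PCR copies cannot be told apart in counts. Near-identical stretches were found with blastn 2.17.0 on M21 transcripts (identity 95% or more over 100 bases or more). The functions were tested on simulated counts. No test was planned, as there is 1 group.

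The 10 genes and the lists were chosen with earlier results of these data known. Named from each list were the 3 highest genes per kilobase, the lowest listed gene and every gene not in the table, some of which are not reported here; Uhrf2, Zfp445 and Dnmt3c were compared with members after their values were seen. Alternatives were 5 other length definitions, leaving out Dnmt3l, a pseudocount of 0.1 in place of 1, genes at CPM 1 or more only, and other detection minimums. Software was matplotlib 3.10.9, pandas 2.3.3, scipy 1.17.1 and numpy 2.4.6 under Python 3.11.15.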

Additional observations from a re-analysis of the deposited data

How the results depend on the processing

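The length definition changed the size of the differences and turned 1 of those listed here, Dnmt3a over Dnmt3b. Values are log2 ratios or log2 differences. The Dnmt over Tet sum, 1.82 per kilobase of exon, was 1.41 per coding sequence, 1.58 per gene span, 0.75 without length and 1.93 by longest transcript with Dnmt3a taken from its internal start. That last setting was chosen after seeing the data. Dnmt1 over the sum of Dnmt3a and Dnmt3b, at 1.38, was 1.29 by longest transcript, 0.30 per coding sequence, 1.17 without length and 0.91 with the internal start. Dnmt3a over Dnmt3b, at -1.22, was -0.68 by longest transcript and -1.01 per gene span, and it reversed to 0.41 per coding sequence, 0.49 without length and 0.16 with the internal start. Tet1 over Tet2, at 1.39, was 0.62 by longest transcript, 1.18 per coding sequence, 0.90 per gene span and 1.26 without length. The median of the 10 genes minus that of all genes, at 1.29, was 1.56 per coding sequence, 0.89 per gene span, 2.37 without length, 1.47 with a pseudocount of 0.1 and 0.68 among genes at CPM 1 or more. All 10 genes stayed detected at CPM 0.5, at 5 counts and at 10 counts. No paired analysis was possible because there was 1 group and a single count column, and for the same reason no replicate could be left out. Counting error limits Dnmt3l, with 56 counts, and Tet3, with 152, more than the other 8 genes.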
